A study of Mus musculus with 6 samples.

Results

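The 9 genes Meis1, Meis2, Meis3, Pbx2, Pbx3, Tcf21, Tbx18, Ebf1 and Alx1 encode transcription factors associated with stromal cells of the developing kidney. They were taken by symbol from a table of 23420 genes, and all 9 were among the 15347 genes with enough reads to be tested. The libraries hold polyadenylated RNA of fetal mouse kidney, taken on embryonic day 18.5. A wild-type dam had been mated to a sire heterozygous for the transgene Six2-GFP. Its signal lights up cap mesenchyme, the nephron progenitors that surround each ureteric tip. Cells of transgenic kidneys, which were kept apart from non-transgenic ones but not by embryo as far as described, were sorted into GFP-positive (Six2-high) and GFP-negative (Six2-low) fractions, so both fractions carry the transgene, and kidneys without it set the gate. The labels name neither the strain nor the animals behind each library. There were 3 libraries per fraction, and each Six2-high library shares its preparation with 1 Six2-low library. The preparation is known from tags in the titles, which read like a date and an RNA kit. Replicate 1 carries 14_6 and TRI, replicate 2 carries 17_7 and Norgen, and replicate 3 carries 17_7 and TRI.

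The renal stroma is the mesenchyme between nephrons that yields interstitial cells, pericytes, mesangium and vascular smooth muscle, and it signals to the neighbouring progenitors. MEIS and PBX proteins belong to the TALE class of homeodomain factors, in which MEIS binds PBX and the pair binds DNA together with HOX proteins. TCF21 is a basic helix-loop-helix (bHLH) factor of stroma and podocytes that dimerises with E proteins and is needed for glomeruli and stroma to form. TBX18 is a T-box factor of the mesenchyme around the ureter, EBF1 a factor known from B lymphocyte commitment and also active in renal stroma and mesangium, and ALX1 a paired-type homeodomain factor best known from craniofacial mesenchyme.

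The paralogs are compared with each other below, so how far their coding sequences differ bears on how well reads can be told apart. Shown are the 120 coding bases in which the MEIS genes are most alike, at the end of the homeobox and just beyond it. They are given 5′ to 3′ in the sense of the gene, from GENCODE M21 transcripts on mm10, with bases that differ from Meis1 in capitals.
Meis1: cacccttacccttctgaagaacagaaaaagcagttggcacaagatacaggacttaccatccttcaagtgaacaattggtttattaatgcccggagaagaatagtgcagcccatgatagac
Meis2: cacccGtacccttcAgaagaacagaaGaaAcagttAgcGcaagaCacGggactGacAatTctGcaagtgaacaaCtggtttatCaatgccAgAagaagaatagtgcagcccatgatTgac
Meis3: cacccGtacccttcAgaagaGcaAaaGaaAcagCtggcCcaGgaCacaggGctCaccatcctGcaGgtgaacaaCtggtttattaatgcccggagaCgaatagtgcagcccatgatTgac
Meis2 and Meis3 each differed from Meis1 at 17 of these bases (85.8% identity). The longest run of identical coding bases was 23 between Meis1 and Meis2, 21 between Meis1 and Meis3 and 28 between Meis2 and Meis3.

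Of the 9 genes, 2 were higher in Six2-high, 5 were lower and 2 did not pass the test. Meis2 and Pbx2 rose. Meis1, Tcf21, Tbx18, Ebf1 and Alx1 fell. Among all tested genes 21.4% were called higher and 28.7% lower, or 50.1% in either direction, so that calls as such are common in this comparison. All 5 lower genes also passed against a 2-fold change, as did 17.3% of tested genes, whereas neither higher gene did (3.56% of tested genes). The fractions did not overlap in 7 of the 9 genes, against 60% of all tested genes. The median log2 fold change, Six2-high minus Six2-low, was -1.93 for the 9 genes and 0.046 over all tested genes. Genes were counted as called at an edgeR quasi-likelihood p below 0.05 after Benjamini-Hochberg adjustment over all tested genes, and levels below are counts scaled to library size (CPM). In sorted bulk samples fewer cells of a type and less RNA per cell cannot be told apart.

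**Figure D1:**
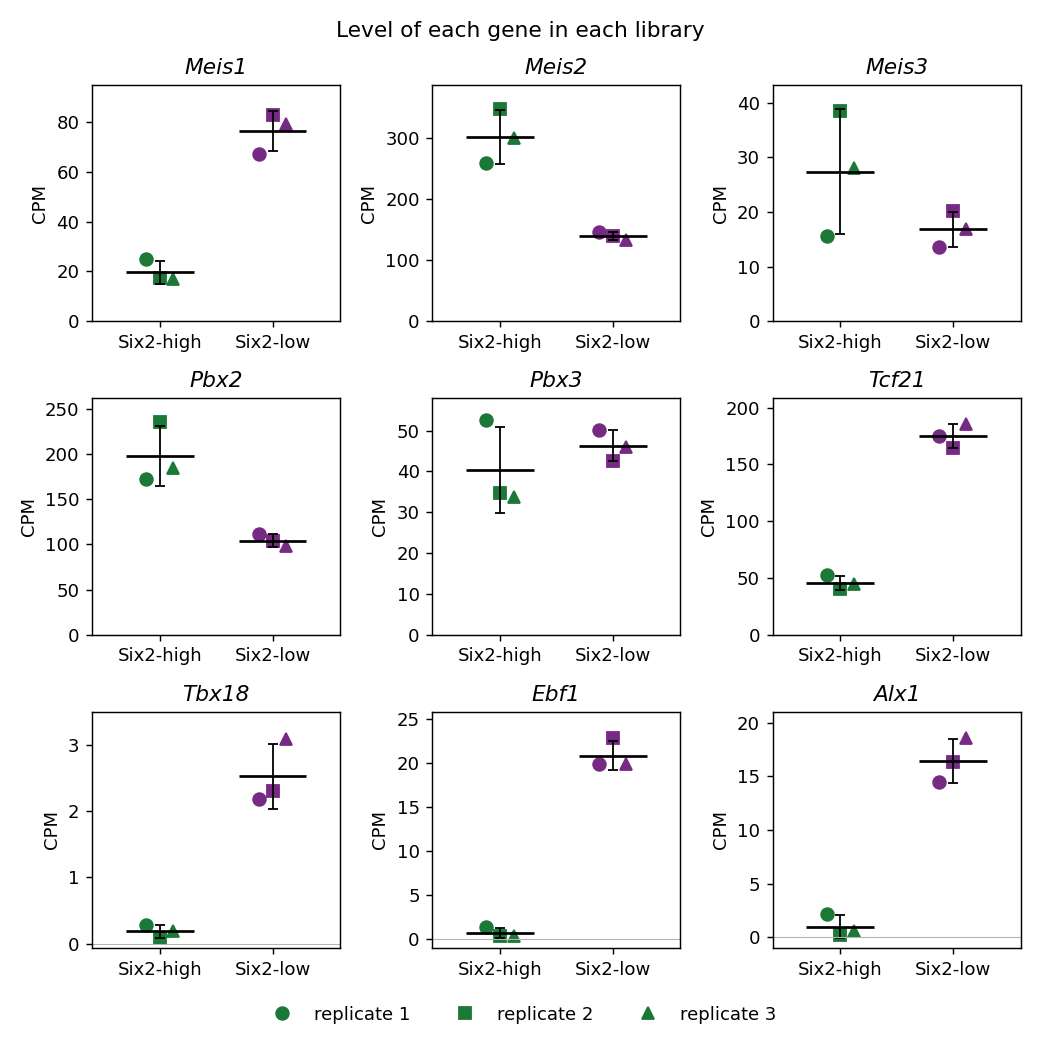
Level in CPM (vertical axis, own scale per gene) of each gene in the 3 Six2-high libraries (green) and the 3 Six2-low libraries (purple), with a symbol per replicate, a line at the mean and a bar for 1 SD. The fractions separate for every gene except Meis3 and Pbx3, and Meis2 and Pbx2 lie above in Six2-high where Meis1, Tcf21, Tbx18, Ebf1 and Alx1 lie below.

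The MEIS genes went separate ways. Meis1, a marker of renal stroma (chromosome 11, 18879817 to 19018985, minus strand, mm10), was at 25.1, 17.4 and 16.8 CPM in Six2-high replicates 1 to 3 and at 67.1, 82.5 and 78.9 CPM in Six2-low. Every Six2-high library lay below every Six2-low library. The fold change was 3.85 in favour of Six2-low (log2 fold change -1.94, SE 0.18, adjusted p = 3.4e-05). Meis2, its paralog with roles in limb, heart and neural crest (chromosome 2, 115863064 to 116065839, minus strand), was at 259, 348 and 299.98 CPM in Six2-high and at 147, 140 and 133 CPM in Six2-low. The fractions again did not overlap, here with Six2-high above, by 2.16-fold (log2 fold change 1.11, SE 0.13, adjusted p = 0.00016). Against a 2-fold change Meis2 did not pass (adjusted p = 0.31).

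Meis3, known from hindbrain patterning in frog embryos (chromosome 7, 16175090 to 16186504, plus strand), was at 15.6, 38.4 and 28.1 CPM in Six2-high and at 13.7, 20.1 and 16.9 CPM in Six2-low. Replicate 1 of Six2-high lay inside the Six2-low range and the other replicates above it. The log2 fold change of 0.70 (SE 0.30) did not pass (adjusted p = 0.087). It passed with the replicate block, at 0.63 (adjusted p = 0.011), and without Six2-high replicate 1, at 0.96 (adjusted p = 0.0067). Within each preparation Meis3 was higher in Six2-high, by 0.19, 0.93 and 0.74 log2 units in replicates 1 to 3.

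The make-up of MEIS reads differed between the fractions. Meis2 held 86.4%, 86.2% and 87.0% of the MEIS counts in Six2-high replicates 1 to 3, and 64.5%, 57.7% and 58.1% in Six2-low. Meis1 held 8.38%, 4.31% and 4.88% in Six2-high against 29.5%, 34.0% and 34.6% in Six2-low. The means were 5.86% ± 2.20 (SD, n = 3) and 32.7% ± 2.80 for Meis1, while Meis3 took 7.64% ± 2.19 and 7.23% ± 1.15. The counting intervals were far narrower than these gaps, for example 7.80% to 8.98% for Meis1 in Six2-high replicate 1 (exact Clopper-Pearson, 95%, counting error only). Per exon length the shares of Meis1 were 5.55% ± 2.37 and 29.9% ± 1.86, those of Meis2 70.9% ± 3.46 and 48.2% ± 4.49, and those of Meis3 23.54% ± 5.79 and 21.9% ± 2.90. Summed over the 3 paralogs the level was 299 to 403 CPM in Six2-high against 228 to 242 CPM in Six2-low, without overlap, so the smaller Meis1 level did not come with a smaller MEIS total.

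**Figure D2:**
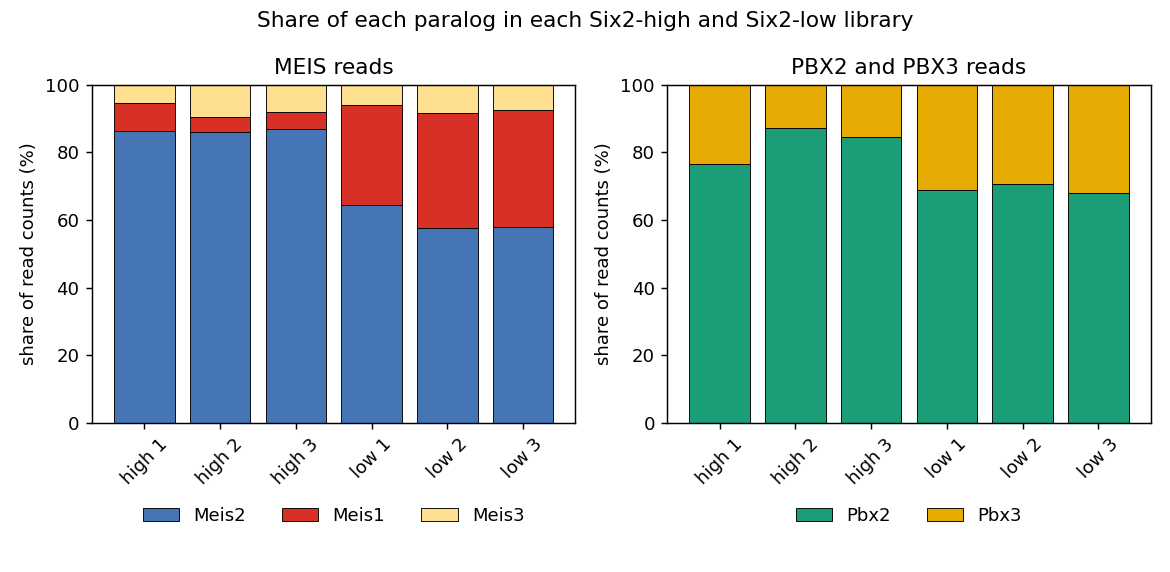
Share of read counts (vertical axis, percent, from 0) held by each paralog in each Six2-high and Six2-low library, for the MEIS genes on the left and for Pbx2 and Pbx3 on the right. Meis1 holds 4.31% to 8.38% of MEIS counts in Six2-high against 29.5% to 34.6% in Six2-low, and Pbx3 holds 12.9% to 23.3% and 29.2% to 31.9% of its pair.

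The PBX genes, whose proteins are the nuclear partners of MEIS and HOX, differed from each other as well. Pbx2 (chromosome 17, 34591266 to 34597400, plus strand) was at 172, 235 and 185 CPM in Six2-high and at 111, 103 and 98.0 CPM in Six2-low. All Six2-high libraries lay above all Six2-low libraries, with a log2 fold change of 0.92 (SE 0.14, adjusted p = 0.00065), or 1.90-fold. Pbx2 shares 227 exon bases with Gpsm3 on the same strand, which had 2830 counts over the 6 libraries against 22992 for Pbx2. Pbx3 (chromosome 2, 34171457 to 34373142, minus strand) was at 52.5, 34.7 and 33.8 CPM in Six2-high and at 50.2, 42.6 and 46.0 CPM in Six2-low. The ranges overlapped because Six2-high replicate 1 held the highest value of all 6 libraries. The log2 fold change was -0.20 (SE 0.18, adjusted p = 0.39), and without Six2-high replicate 1 it was -0.45 and passed (adjusted p = 0.013). The ratio of Pbx2 to Pbx3 in CPM was 3.29, 6.78 and 5.46 in Six2-high against 2.22, 2.42 and 2.13 in Six2-low.

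Tcf21 (chromosome 10, 22817281 to 22820174, minus strand) was at 52.4, 40.4 and 44.6 CPM in Six2-high and at 175, 165 and 186 CPM in Six2-low. Every Six2-high library lay far below the lowest Six2-low value. It fell by 1.93 on the log2 scale (SE 0.13, adjusted p = 6.0e-06), a 3.82-fold difference. Its loss nearly equalled that of Meis1, and of the pairs among the 9 genes only Meis2 with Pbx2 were closer in pattern. The distance between centred log2 CPM profiles over the 6 libraries was 0.36 for Tcf21 with Meis1 and 0.26 for Meis2 with Pbx2, which describes 6 libraries that share 3 preparations. Tcf21 had 1507, 957 and 908 counts in Six2-high replicates 1 to 3, so its level there rests on many reads.

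Tbx18 (chromosome 9, 87702800 to 87731260, minus strand) had few reads in every library. It had 8, 2 and 4 counts in Six2-high replicates 1 to 3 and 59, 59 and 96 in Six2-low, or 0.278, 0.084 and 0.196 CPM against 2.18, 2.30 and 3.10 CPM. Six2-low was higher in every library, although 14 reads carry the Six2-high level. The log2 fold change was -3.70 (SE 0.42, adjusted p = 0.00013). Ebf1 (chromosome 11, 44617317 to 45008091, plus strand) had 41, 10 and 8 counts in Six2-high against 538, 586 and 618 in Six2-low, or 1.43, 0.422 and 0.393 CPM against 19.9, 22.9 and 19.9 CPM. Of the 9 genes it had the largest loss (log2 fold change -4.73, SE 0.42, adjusted p = 2.8e-05). Among all tested genes 658 had a larger loss. Alx1 (chromosome 10, 102998707 to 103030215, minus strand) had 64, 5 and 12 counts in Six2-high against 391, 420 and 575 in Six2-low, or 2.22, 0.211 and 0.589 CPM against 14.5, 16.4 and 18.6 CPM. It fell by 3.96 (SE 0.60, adjusted p = 0.00066). In both Ebf1 and Alx1 the Six2-high libraries were low throughout, and replicate 1 was the highest of them.

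Levels could be ranked between genes only per exon length, as FPKM (CPM per kilobase) over the union of GENCODE M21 exons, which takes no account of which transcripts were made. In Six2-low Tcf21 ranked first at 74.5 ± 4.45 FPKM (SD, n = 3), followed by Pbx2 at 28.6 ± 1.85 and Meis2 at 11.6 ± 0.602. Pbx3 at 7.57 ± 0.623 and Meis1 at 7.23 ± 0.763 had overlapping ranges. Below them Meis3 stood at 5.33 ± 1.01, Alx1 at 2.86 ± 0.355, Ebf1 at 2.14 ± 0.173 and Tbx18 at 0.536 ± 0.105 FPKM, each separate from its neighbour. The order in Six2-high began with Pbx2 at 54.2 ± 9.14 FPKM. Meis2 at 25.1 ± 3.70 and Tcf21 at 19.5 ± 2.60 overlapped, as did Meis3 at 8.64 ± 3.60 and Pbx3 at 6.60 ± 1.72. Meis1 at 1.88 ± 0.437 FPKM was separate from its neighbours, and Alx1 at 0.175 ± 0.186, Ebf1 at 0.077 ± 0.060 and Tbx18 at 0.039 ± 0.021 FPKM could not be separated. Although Tcf21 fell, it was therefore still among the 3 highest of these genes in the progenitor fraction.

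**Figure D3:**
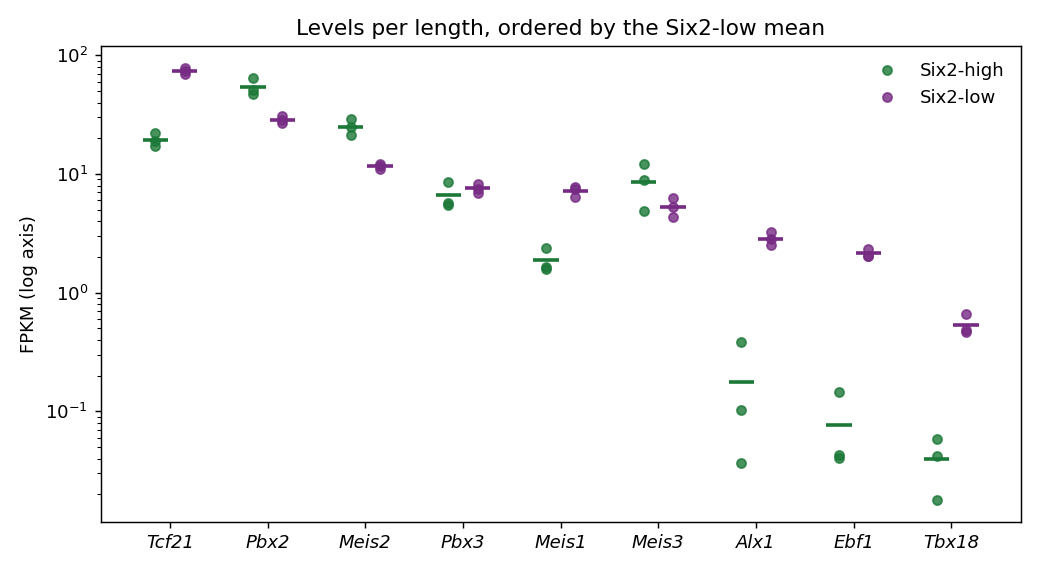
FPKM (vertical log axis) of each gene in the 3 libraries of Six2-high (green) and Six2-low (purple), with a line at each mean, ordered from left to right by the Six2-low mean. Tcf21 leads in Six2-low at 74.5 FPKM and Pbx2 in Six2-high at 54.2 FPKM, and Alx1, Ebf1 and Tbx18 are the lowest in both fractions.

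The size of the difference varied between preparations in a like manner for the 5 lower genes. In all 5 the loss was smallest in replicate 1, which has its own date tag. How many of all called genes differed least in replicate 1 was not counted, so the pattern is not shown to be particular to these genes. The log2 difference within preparations, taken from log2 CPM after adding a prior count of 2, was -2.66, -5.84 and -4.81 for Alx1 in replicates 1 to 3. Ebf1 gave -3.73, -5.52 and -5.41, Tbx18 -2.67, -3.88 and -3.54, Meis1 -1.42, -2.24 and -2.22, and Tcf21 -1.74, -2.03 and -2.06. The spread was widest for Alx1, whose level in Six2-high replicate 1 was 10.6 times that in replicate 2 and 3.78 times that in replicate 3. Without Six2-high replicate 1 the fold difference rose from 15.6 to 42.4 for Alx1 (log2 fold change -5.41) and from 26.6 to 51.3 for Ebf1 (-5.68), so the size of both losses rests in part on 1 library. The higher genes moved alike, with the smallest gains in replicate 1, at 0.81, 1.31 and 1.18 for Meis2 and 0.63, 1.19 and 0.91 for Pbx2.

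Whether the fraction difference depended on the date tag was tested with an interaction term, added after these values were seen. No gene of the 15347 passed (0%), with 1256 genes, 3 of the 9 among them, at an unadjusted p under 0.05. The interaction, 17_7 minus 14_6, was -2.78 (SE 0.52, adjusted p = 0.17) for Alx1, -1.89 (SE 0.38, adjusted p = 0.19) for Ebf1 and -0.82 (SE 0.20, adjusted p = 0.25) for Meis1. With DESeq2, of 14778 genes with an adjusted p, 52 passed with a positive and 79 with a negative interaction. Of the 9 only Alx1 did (adjusted p = 0.0035). The tag 14_6 has 1 preparation, so its date and that preparation cannot be told apart. Taken over both fractions, none of the 9 genes was called between the TRI preparations of the 2 dates, where 0.769% of genes were called. At an unadjusted p under 0.05 there were 3293 genes in that contrast, 2 of the 9 among them, Meis3 (17_7 minus 14_6, log2 0.57, SE 0.19, adjusted p = 0.17) and Pbx3 (-0.38, SE 0.14, adjusted p = 0.19). None of the 9 was called between the Norgen and TRI preparations of 17_7 either, where no gene was called (0%). There 2889 had an unadjusted p under 0.05, with 0 of the 9 among them. Norgen has 1 preparation, so the kit and that preparation cannot be told apart. DESeq2 called 417 genes up and 337 down by date, of 12863 with an adjusted p, and 338 and 225 by kit, of 6734. It called none of those of the 9 for which it gave an adjusted p.

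**Figure D4:**
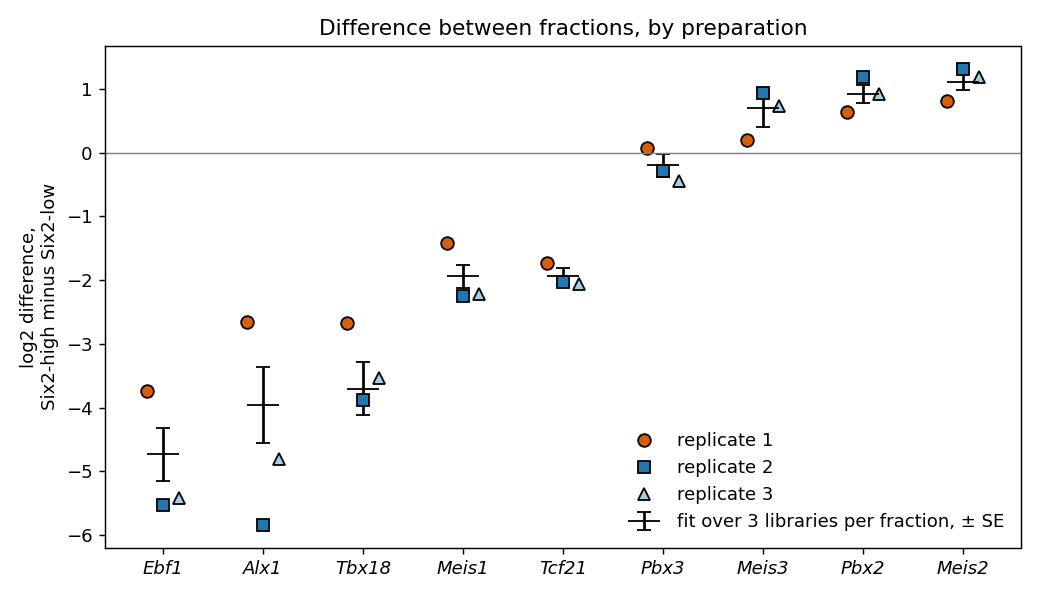
Log2 difference between Six2-high and Six2-low (vertical axis, positive where Six2-high is higher) for each gene, with a symbol for each preparation and a dash with a bar for the fitted value and its SE. Replicate 1 lies nearest to 0 for the 5 lower genes and for Meis2, Pbx2 and Meis3, and in Pbx3 it lies on the other side of 0 from replicates 2 and 3.

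Markers of cell types also differed between the fractions, in both directions. Of 10 cap mesenchyme markers 10 were higher in Six2-high, with a summed level of 3473 CPM in replicate 1 against 5009 and 4426 CPM in replicates 2 and 3, and 525 to 701 CPM in Six2-low. Six2 itself was at 849, 1479 and 1344 CPM in Six2-high and at 23.4, 11.2 and 11.1 CPM in Six2-low replicates 1 to 3. Of 12 stromal markers 11 were lower and 1, Foxd1, was higher. Their sum was 319, 327 and 341 CPM in Six2-high replicates 1 to 3, lowest in replicate 1, against 3407 to 4166 CPM in Six2-low. Without Foxd1, the stromal forkhead gene, the order was the reverse, with Six2-high sums of 270, 207 and 190 CPM in replicates 1 to 3. All 6 smooth muscle markers were lower, at 49.5, 18.2 and 23.0 CPM in Six2-high replicates 1 to 3 and 382 to 402 CPM in Six2-low. Replicate 1 of Six2-high therefore held the lowest cap sum and the highest smooth muscle sum of its fraction. The part of this in the weaker differences of replicate 1 was not tested.

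Endothelial markers (6 of 6 lower) summed to 3.96 to 5.18 CPM in Six2-high against 626 to 1030 CPM in Six2-low, macrophage markers (5 of 5 lower) to 1.31 to 1.72 and 110 to 139 CPM, and ureteric bud markers (7 of 7 lower) to 53.4 to 59.6 and 596 to 744 CPM. In Six2-high replicates 1 to 3 the endothelial sum was 5.18, 3.96 and 4.42 CPM, highest in replicate 1. The macrophage sum was 1.56, 1.31 and 1.72 CPM and the ureteric bud sum 59.4, 59.6 and 53.4 CPM, neither highest in replicate 1. Podocyte markers were lower in 7 of 8 and higher in 1. Their sums were 633, 913 and 803 CPM in Six2-high replicates 1 to 3 and 1048 to 1211 CPM in Six2-low. Mesangial, pericyte and renin markers were lower in 3 of 4 tested, with Ren1 at 0 counts in every library. They summed to 84.3, 122 and 87.6 CPM in Six2-high replicates 1 to 3 and 197 to 237 CPM in Six2-low. B lymphocyte markers, where EBF1 is best known, were lower in 1 of 3 tested, at 6.85, 8.31 and 9.53 CPM in Six2-high replicates 1 to 3. In Six2-low they were at 32.9 CPM in replicate 1 and 8.62 and 7.45 CPM in replicates 2 and 3, and Ebf1 was at 19.9, 22.9 and 19.9 CPM in the same libraries. The part of B lymphocytes in the Ebf1 level was not tested. Nerve and glia markers were higher in 1 and lower in 2 of 4 tested, with Sox10 at 0 in Six2-high. They summed to 36.2, 35.5 and 33.1 CPM in Six2-high replicates 1 to 3 and 6.04 to 11.4 CPM in Six2-low.

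Relatives and partners of the 9 factors were taken as lists by family. Among 11 tested TALE homeobox genes besides the MEIS and PBX members, 4 were higher and 4 lower (median log2 fold change 0.37). The strongest were the Iroquois genes Irx1 and Irx2, patterning factors of the nephron, at 1.17 ± 0.745 against 170 ± 34.9 CPM and 0.426 ± 0.208 against 61.3 ± 13.7 CPM (log2 fold changes -7.14, SE 0.40, and -7.12, SE 0.33). The E proteins, which dimerise with TCF21, and the ID proteins, which sequester them, were higher in 4 of 7 and lower in 0 (median 0.64). Tcf4 rose from 116 ± 8.78 to 346 ± 56.8 CPM (1.57, SE 0.14) and Tcf3 from 330 ± 15.1 to 515 ± 41.7 CPM (0.64, SE 0.11), so both moved opposite to Tcf21. Of 6 tested class II bHLH genes besides Tcf21, 1 was higher and 3 were lower (median -1.40). Scx, a tendon factor, rose from 10.3 ± 0.894 to 59.8 ± 7.87 CPM (2.54, SE 0.15), and Twist1, a mesenchymal factor, fell by 3.44 (SE 0.22) from 11.6 ± 0.827 to 1.05 ± 0.174 CPM.

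Of 4 tested genes on the list of other EBF genes and their zinc finger cofactors, 3 were higher and 1 was lower (median 1.23). Ebf4 was at 98.3 ± 30.7 CPM in Six2-high against 24.0 ± 3.37 CPM in Six2-low (2.03, SE 0.23), and Zfp521, a zinc finger gene whose protein binds EBF factors, at 106 ± 10.8 and 47.3 ± 2.15 CPM (1.16, SE 0.11). Of 5 tested T-box genes 1 was higher and 2 were lower (median -0.20). Tbx2 and Tbx3, T-box genes of the mesenchyme around the ureter, were at 3.64 ± 1.31 against 188 ± 27.3 CPM and 1.10 ± 0.535 against 67.2 ± 15.1 CPM (-5.67, SE 0.26, and -5.89, SE 0.32). Tbx5 and Tbx20 had 0 counts in Six2-high. Among 3 tested paired-related homeobox genes 1 was higher and 1 lower (median 0.44). Alx4, a paralog of Alx1, fell by 2.39 (SE 0.36) from 2.37 ± 0.369 to 0.460 ± 0.180 CPM, and Prrx2, a mesenchymal factor, rose by 1.76 (SE 0.15) from 7.57 ± 0.583 to 25.5 ± 2.98 CPM. The 12 genes given with fold changes from these lists passed by edgeR, and their fractions did not overlap.

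Foxd1, the forkhead marker of stromal progenitors, was at 49.3, 120 and 151 CPM in Six2-high against 18.7, 51.5 and 57.3 CPM in Six2-low (log2 fold change 1.33, SE 0.48, adjusted p = 0.046). The fractions overlapped across preparations, and both replicate 1 libraries were the lowest of their fraction. Within each preparation Foxd1 was higher in Six2-high. Its direction was that of Meis2 and Pbx2, not that of Tcf21 and Meis1.

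The genes with the most similar patterns were found by the distance between centred log2 CPM profiles over the 6 libraries, leaving out genes that averaged under 10 CPM. Distance 0 would be an identical profile. Levels enter only through the prior count of 2, which shrinks the differences of weakly counted genes such as Tbx18. Closest to Tcf21 were Cnn2 (0.16), Kcnk5 (0.18) and Acot9 (0.20), with log2 fold changes of -1.85, -1.81 and -2.002. Meis1 had Dmd (0.15), Fzd1 (0.22) and Flrt2 (0.24) nearest. Meis2 was nearest to Syt11 (0.11), Ranbp17 and Zfp747 (0.14 each), and Pbx2 to Kif7 (0.14), Wwp2 and Brsk1 (0.15 each). For Meis3 they were Zfp395 (0.15), Peg3 (0.19) and P4htm (0.22), and for Pbx3 Fanci and Slc25a32 (0.12 each) and Tk1 (0.13). The weakly counted genes had no match as close. The nearest to Tbx18 were Plscr2 (0.39), Epcam (0.42) and Anxa2 (0.45), while Col6a3 (0.38) and Gpr126 (0.39) were near Ebf1, and Fbln5 (0.79) and Dkk1 (0.94) near Alx1. Epcam is a gene of epithelia.

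Promoter windows from 250 bases before to 50 after the start were given by RefSeq (GRCm38.p6) for 7 of the 9 genes, in 8 windows. They were searched on both strands for the MEIS hexamer TGACAG, the PBX-HOX octamer TGATTGAT and the E-box CAGCTG, of which the hexamer and the E-box share the letters CAG and can overlap. The hexamer was found in 1 gene, Tbx18, against 19.2% of all 32851 windows of that length. The octamer and the E-box were found in none, against 0.746% and 16.3%. The windows of Tcf21 and Meis1, which had near profiles, are printed with that of Tbx18, whose hexamer stands in capitals and starts 19 bases from the transcript start, counted from 1. They lie at chr10:22820094-22820393, chr11:19018920-19019219 and chr9:87731211-87731510 on the minus strand and are written 5′ to 3′ in the sense of the gene.
Tcf21: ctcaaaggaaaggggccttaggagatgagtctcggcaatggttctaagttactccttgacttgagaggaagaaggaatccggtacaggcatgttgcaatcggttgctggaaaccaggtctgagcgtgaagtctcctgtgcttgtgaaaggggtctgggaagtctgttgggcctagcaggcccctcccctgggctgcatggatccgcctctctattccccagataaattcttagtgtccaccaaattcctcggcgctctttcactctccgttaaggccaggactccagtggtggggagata
Meis1: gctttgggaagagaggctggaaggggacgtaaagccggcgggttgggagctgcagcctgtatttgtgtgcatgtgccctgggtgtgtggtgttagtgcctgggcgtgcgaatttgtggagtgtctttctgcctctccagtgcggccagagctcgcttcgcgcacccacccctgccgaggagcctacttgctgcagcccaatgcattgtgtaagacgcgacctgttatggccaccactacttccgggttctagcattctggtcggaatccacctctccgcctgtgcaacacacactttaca
Tbx18: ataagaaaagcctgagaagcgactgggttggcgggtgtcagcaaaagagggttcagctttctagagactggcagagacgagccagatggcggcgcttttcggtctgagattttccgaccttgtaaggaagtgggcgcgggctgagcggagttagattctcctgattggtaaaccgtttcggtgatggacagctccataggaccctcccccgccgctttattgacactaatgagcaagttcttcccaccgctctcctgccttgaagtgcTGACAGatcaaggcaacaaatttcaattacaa
The match describes letters alone, and no binding was measured.

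Total counts ran from 23535399 to 29791421 per library. Six2-high replicate 3 stood apart in the ribosomal RNA precursor Rn45s, at 9.59% of its counts against 0.499% to 0.676% elsewhere. Leaving Rn45s and Lars2 out of the counts changed no call among the 9 genes. Meis1, Pbx2, Tbx18 and Alx1 share exon bases with other genes of GENCODE M21, by 1029 and 896 bases for Meis1, 227 for Pbx2, 970 for Tbx18 and 243 for Alx1. Reads in these stretches cannot be assigned with certainty. Of those other genes only Gpsm3, which overlaps Pbx2, is among the counted symbols.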

How the data were processed

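The deposited table holds raw read counts per gene symbol for 6 libraries. Per the submitters' processing notes, build mm10 and the tools HTSeq 0.6.1p1, TopHat2 2.1.0, DESeq2 and SAMtools were used, in roles the notes do not state. Neither the annotation nor the strand setting is stated. A deposited normalised version of the same counts was not used. Counts were analysed with edgeR 4.0.16 (R 4.3.3): filterByExpr, TMM scaling, and a two-sided quasi-likelihood F test of fraction on all 15347 retained genes. SE is the log2 fold change over the root of F. Kit and date came from a model of fraction and preparation, and the date tag interaction from its own. Alternatives used DESeq2 1.42.0, other scaling and filters, the preparation as a replicate block, and libraries left out or summed. The fraction fits and the interaction fit were tested on simulated counts that held no preparation effect, so how they handle one was not checked. The date and kit contrasts were not tested in this way. P-values measure the spread between these libraries, which may be technical.

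The preparations pair the libraries, per the labels. Deviations from fraction means correlated at 0.37, 0.42 and 0.33 across genes within the 3 preparations. Replicates differed beyond sampling noise (chi-square per degree of freedom 16.1 to 200.0). The highest values, 179 and 200.0, were of the pairs with Six2-high replicate 3, and the other pairs reached 71.0 at most. Rn45s was among the genes counted here, and its part in these values was not tested.

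The 9 genes and the lists were chosen with earlier results of these data known. Besides these genes, the text names the 3 nearest patterns of each (some items are not reported here), the 2 genes of smallest p in each family list, and marker genes picked after their values were seen. In the lists, 1 symbol (Tcf24) was not matched and Adgre1 was read as Emr1. Coordinates and exon lengths are from GENCODE M21 (21740 of 23420 symbols matched).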

Additional observations from a re-analysis of the deposited data

Results flagged for a closer look

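Pbx3 differed in direction between preparations. Its log2 difference, Six2-high minus Six2-low, was 0.065 in replicate 1, -0.29 in replicate 2 and -0.44 in replicate 3. A preparation holds 1 library per fraction, so these signs alone are untested. In the interaction of fraction with date tag Pbx3 had a value of -0.44 (SE 0.20, edgeR adjusted p = 0.69).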

How the results depend on the processing

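The direction of all 9 log2 fold changes held under each of the 15 alternatives, and no result reversed. The 7 calls among the 9 genes held throughout, with adjusted p up to 0.022 (Alx1). Meis3 and Pbx3 did not pass in the main comparison and passed under some alternatives. Meis3 was at 0.63 (adjusted p = 0.011) with the replicate block, and 0.38 to 0.96 with libraries left out, passing without Six2-high replicate 1 and without both libraries of replicate 1 (0.81). Pbx3 was at -0.45 to -0.089 with 1 library left out (-0.088 with a pair left out), and passed without the same library or pair (-0.41). The replicate block changed no other call. Of the low counts, Tbx18 ranged from -4.30 to -3.36, Ebf1 from -5.73 to -4.38 and Alx1 from -5.51 to -3.48. Over all genes, 3285 were higher in the main comparison, 1995 with same-date libraries summed, 2160 without Six2-low replicate 2, and 2086 and 1329 without both libraries of replicate 2 or of replicate 3 (1329 to 3183 over all libraries left out). DESeq2 called 1 of the 9 genes, Alx1, in the interaction, where edgeR called none. It gave no adjusted p for Tbx18 in the date contrast and for Meis3, Tbx18, Ebf1 and Alx1 in the kit contrast. The cause of these differences was not tested. Fold changes of Tbx18 are limited by 14 reads in Six2-high.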
